A study of Mus musculus with 17 samples.

Results

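A set of 42 genes that act in mitosis and at the kinetochore was followed through 17 bulk RNA-seq libraries of bone stromal cells from mice carrying 0, 1 or 2 copies of the Cxcr4 1013 allele. The genes were listed by symbol for their roles in mitosis, with earlier results of these data known, and all 42 were found once each among the 55335 genes of the count files. They comprised 9 entry kinases, cyclins and phosphatases, 2 genes of chromosome structure and proliferation (Top2a and Mki67), 7 genes of the spindle checkpoint and the anaphase-promoting complex, 7 centromere and kinetochore genes, 4 subunits of the chromosomal passenger complex, 11 spindle motors and microtubule proteins, and 2 cytokinesis genes. Osteoprogenitor cells (OPCs) and skeletal stem cells (SSCs) had been sorted from digested bone as CD45-, TER119- and CD31- cells that carried CD51; SSCs were Sca-1+ PDGFRα+ and OPCs were Sca-1-. The 1013 allele is a knock-in that truncates the cytoplasmic tail of the chemokine receptor Cxcr4 in every cell of the animal, and it serves as a mouse model of the WHIM syndrome, in which the receptor signals for too long. WT (Cxcr4+/+), heterozygous (+/1013) and homozygous (1013/1013) littermates of 8 to 12 weeks, all females, were compared, with 3 libraries in each group except 1013/1013 SSCs, which had 2. Each library came from 3000 cells pooled from 3 mice, so a library is the replicate and single animals cannot be seen. Library totals were 64099849 to 92683497 counts in OPCs and 44217695 to 50509592 in SSCs.

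Cells enter mitosis when cyclin B-bound Cdk1 is switched on by Cdc25 phosphatases and Polo-like kinase. The kinetochore then assembles on centromeric chromatin marked by Cenpa, the spindle checkpoint holds the anaphase-promoting complex until each chromosome is attached, and the passenger complex and motor proteins drive segregation and cleavage. Most of these transcripts are made only late in the cell cycle, so in a bulk sample their level follows the share of cells in G2 and M phase; most stem and progenitor cells of adult bone rest outside the cycle. A lower value in such a sample can come from fewer dividing cells or from less RNA in each, and these cannot be told apart here.

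The sorted identities held in the libraries. Levels are given as counts scaled to the library total (CPM, the usual per-million unit). In OPC libraries 6 OPC markers (Runx2, Sp7, Alpl, Ibsp, Bglap and Col1a1) summed to 92895 to 225294 CPM. In SSC libraries they summed to 2269 to 16619 CPM. Col1a1 alone was at 89658 to 217358 CPM in OPCs. Ibsp overlapped, at 1557 to 5302 CPM in OPCs and 368 to 1636 CPM in SSCs, and the others of the 6 did not. Ly6a, which encodes Sca-1, was at 0.45 to 11.8 CPM in OPCs and 530 to 1789 CPM in SSCs. A set of 3 libraries stood apart: WT OPC 3, 1013/1013 OPC 2 and WT SSC 3 held 19626, 16322 and 14780 CPM summed over 18 leukocyte markers, against 45.6 to 1367 CPM in the other 14. Of the 18 markers, 15 were higher in each of the 3 than in every one of the other 14 libraries, and 1 was at 0 in at least 1 of the 3. Ptprc, the gene for the CD45 antigen on which the sort excluded cells, was at 38.8, 101 and 170 CPM there and at 0 to 10.04 CPM elsewhere. The members' medians and most fold changes below are therefore given with and without these 3 libraries. DESeq2 calls and counts of groups that do not overlap include them.

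Taken over all members, the 3 libraries were also those with the most mitotic RNA. The 42 genes summed to 697 CPM in WT OPC 3, 792 CPM in 1013/1013 OPC 2 and 1100 CPM in WT SSC 3, and to 224 to 453 CPM in the other 14 libraries. Among OPC libraries, 36 of 42 members had their highest CPM in 1 of the 2 leukocyte-rich ones, and 38 of 42 had their highest SSC value in WT SSC 3. On the normalized log2 scale, WT SSC 3 held the highest SSC value of 33 of the 40 members tested, or 82.5%, where it held the highest value of 18.2% of all genes. WT OPC 3 and 1013/1013 OPC 2 each held the highest value of 17 of 41 members, or 41.5%, against 16.5% and 12.4% of all genes. The median member lay 3.17 log2 units above the SSC mean in WT SSC 3, and 1.51 and 1.46 above the OPC mean in the other 2 libraries. Whether the leukocyte RNA carries these transcripts was not tested.

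**Figure D1:**
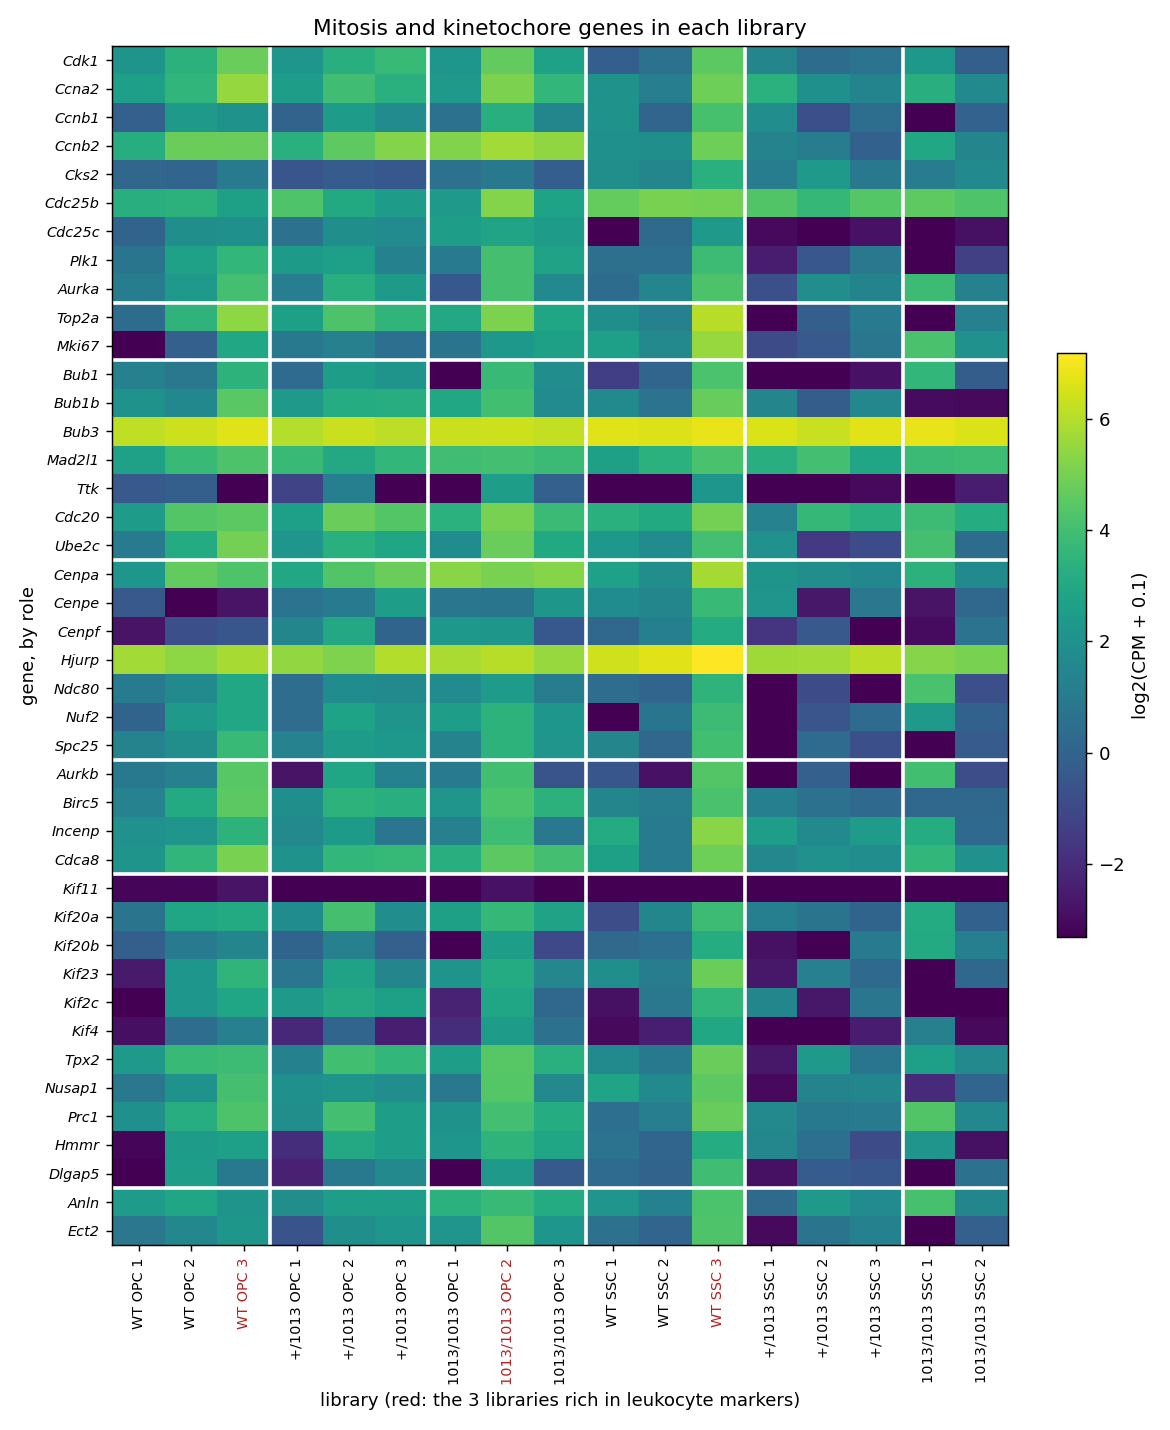
Level of each of the 42 members (rows, ordered by role) in each of the 17 libraries (columns), as log2(CPM + 0.1). The columns of WT OPC 3, 1013/1013 OPC 2 and WT SSC 3 are brighter than those of their groups for most rows, Bub3 and Hjurp are bright in every column, and Kif11 is dark in every column.

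Bub3 and Hjurp had the highest median CPM of the members in both cell types. Their highest OPC and SSC values were in leukocyte-rich libraries too. Bub3, a checkpoint protein that also works outside mitosis, was at 64.2 to 101 CPM in OPCs and 78.3 to 113 CPM in SSCs. Hjurp, the chaperone that deposits Cenpa at centromeres, was at 35.3 to 66.2 CPM in OPCs and 33.0 to 145 CPM in SSCs. Together they made up 19.0% to 65.2% of the members' summed CPM, with the lowest shares in the leukocyte-rich libraries. Per kilobase of exon, which allows genes to be compared, Ccnb2 had the highest median in OPCs at 18.5 CPM per kb, followed by Bub3 at 11.5, Cdc20 at 11.03 and Hjurp at 6.28. In SSCs the order began with Bub3 at 14.2, Hjurp at 7.28, Cdc25b at 5.95 and Cdc20 at 5.28 CPM per kb, and Ccnb2 stood at 2.06. The ranges of neighbours in these orders overlapped: Ccnb2 spanned 5.95 to 34.8 CPM per kb over the 9 OPC libraries and Bub3 9.16 to 14.4. At the other end, Kif11, the motor that separates spindle poles, was at 0 to 0.05 CPM in all 17 libraries and exactly 0 in 13. It was removed by the filter on low counts, and DESeq2 gave it no adjusted p. Kif11 was at 0 in WT SSC 3 too, where Top2a was at 66.6 CPM. The annotation used for counting is not given, and its part in the Kif11 values was not tested. Ttk, a checkpoint kinase, was at 0 in 8 libraries and reached 5.58 CPM in 1013/1013 OPC 2.

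Without Bub3 and Hjurp, the other 40 members summed to 540, 642 and 842 CPM in the 3 leukocyte-rich libraries and to 92.0 to 337 CPM in the others. Within OPCs the remaining libraries were themselves uneven: WT OPC 1 and +/1013 OPC 1 were at 100 and 141 CPM, and +/1013 OPC 2 was at 337 CPM. The other 7 SSC libraries lay between 92.0 and 137 CPM, except 1013/1013 SSC 1 at 277 CPM.

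**Figure D2:**
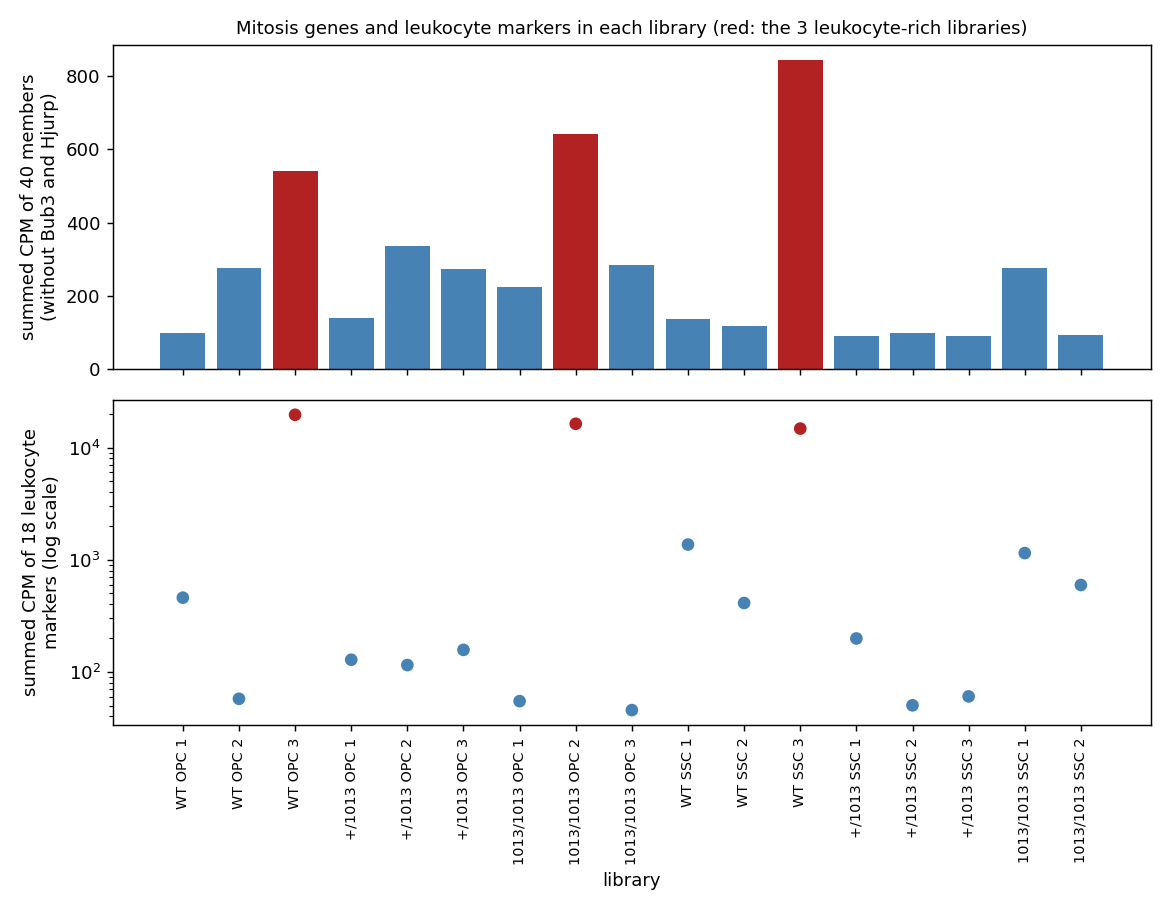
Upper panel, summed CPM of 40 members (all but Bub3 and Hjurp) in each library; lower panel, summed CPM of 18 leukocyte markers on a log scale. The 3 libraries in red are at 540, 642 and 842 CPM in the upper panel and between 14780 and 19626 CPM in the lower one.

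That library, 1013/1013 SSC 1, was a patchwork. Mki67, the usual marker of cycling cells, was at 17.7 CPM there, Aurkb, the passenger complex kinase, at 15.9 CPM, the kinetochore protein gene Ndc80 at 17.96 CPM and the midzone crosslinker Prc1 at 19.9 CPM. Ccnb1, Top2a, Plk1, Kif23, Spc25 and Ect2 were at 0 in the same library. Of its 42 members 11 were at 0, against 0 to 9 in the other 16 libraries, while 19 of the 40 members other than Bub3 and Hjurp were above 5 CPM. It also had the fewest genes with a count, 15748, against 17808 to 22599 in the other SSC libraries. In +/1013 SSC 1, the next such library, 9 members were at 0 and 16 had 3 counts or fewer. Amplification from 3000 cells can lose rare transcripts, and its part in these zeros was not tested. The library 1013/1013 SSC 1 also held 1147 CPM summed over leukocyte markers and 106 CPM over 8 endothelial markers. With WT SSC 3 set aside, the other SSC libraries held 50.3 to 1367 CPM and 8.04 to 102 CPM. The part of these markers in its members' values was not tested.

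Most members varied together across OPC libraries. The correlation of a member with the mean of the others over the 9 OPC libraries, on the log2 scale, was highest for Birc5 (r = 0.96), Ube2c (r = 0.96), Ccnb1 (r = 0.96) and Cdc20 (r = 0.95). It was lowest for Cenpe, the kinetochore motor, at r = -0.16. Over the 8 SSC libraries Cenpa (r = 0.87) and Birc5 (r = 0.85) were highest and Bub3 lowest at r = -0.05. These values are a description: the libraries share the leukocyte difference and their depth, and no p-value was attached.

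The stretches of DNA before the start sites of members were read because the members moved together. Genes switched on in G2 and M phase often carry a CCAAT box, bound by NF-Y, and a cell cycle genes homology region, bound by DREAM and MuvB complexes. RefSeq promoter windows on GRCm38.p6, from 250 bases before to 50 after the start, were matched by symbol for 35 of the 42 members (38 windows), with none for Aurkb, Ccna2, Cdc25c, Dlgap5, Incenp, Kif20a and Tpx2. The letters CCAAT, on either strand, were in 30 of 38 member windows, or 78.9%, against 37.4% of all 32851 windows, and 2 or more copies were in 55.3% against 11.7%. The letters TTTGAA or TTCGAA, on either strand, were in 31 of 38 member windows, or 81.6%, against 19.2% of all. Both were in 71.1% of member windows and 7.52% of all. Neither was found in the windows of Birc5, Mad2l1, Nuf2 and Nusap1. Of the members printed here, Mki67, Top2a and Cdk1 are general marks of proliferation. Ccnb2, Bub1, Bub1b and Hjurp are those called between cell types below that had a window. Bub3 is the member with the smallest log2 range over the SSC libraries. Each line gives the 200 bases that end just before the start site, 5′ to 3′ on the gene's strand, with both kinds of motif in capitals. They lie at chr7:135716380-135716579 (Mki67, minus strand), chr11:99024190-99024389 (Top2a, minus), chr10:69352913-69353112 (Cdk1, minus), chr9:70421555-70421754 (Ccnb2, minus), chr2:127831860-127832059 (Bub1, minus), chr2:118598011-118598210 (Bub1b, plus), chr7:131560170-131560369 (Bub3, plus, the first of its 2 windows) and chr1:88277580-88277779 (Hjurp, minus).
Mki67: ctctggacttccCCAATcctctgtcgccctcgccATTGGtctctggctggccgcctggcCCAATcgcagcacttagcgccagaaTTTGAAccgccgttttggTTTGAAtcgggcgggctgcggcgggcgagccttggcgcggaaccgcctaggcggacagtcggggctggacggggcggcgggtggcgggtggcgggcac
Top2a: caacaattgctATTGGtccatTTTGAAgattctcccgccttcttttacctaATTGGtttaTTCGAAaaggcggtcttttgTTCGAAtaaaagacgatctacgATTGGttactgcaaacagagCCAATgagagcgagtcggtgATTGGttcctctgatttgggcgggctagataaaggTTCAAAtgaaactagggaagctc
Cdk1: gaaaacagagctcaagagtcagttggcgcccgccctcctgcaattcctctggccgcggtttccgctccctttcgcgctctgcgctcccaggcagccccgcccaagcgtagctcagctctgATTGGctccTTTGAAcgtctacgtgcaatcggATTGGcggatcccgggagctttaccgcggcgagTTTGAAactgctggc
Ccnb2: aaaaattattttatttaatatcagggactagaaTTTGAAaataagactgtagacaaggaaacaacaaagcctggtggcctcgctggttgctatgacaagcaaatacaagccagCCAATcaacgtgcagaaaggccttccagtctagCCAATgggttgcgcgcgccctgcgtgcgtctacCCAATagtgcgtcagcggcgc
Bub1: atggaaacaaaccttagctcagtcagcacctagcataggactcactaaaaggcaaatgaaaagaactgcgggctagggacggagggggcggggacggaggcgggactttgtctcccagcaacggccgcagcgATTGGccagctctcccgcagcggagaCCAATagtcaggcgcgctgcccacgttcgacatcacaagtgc
Bub1b: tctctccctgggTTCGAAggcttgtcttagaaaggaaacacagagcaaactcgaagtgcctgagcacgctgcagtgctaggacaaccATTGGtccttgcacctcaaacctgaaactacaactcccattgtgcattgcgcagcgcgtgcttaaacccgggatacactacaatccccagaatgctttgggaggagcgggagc
Bub3: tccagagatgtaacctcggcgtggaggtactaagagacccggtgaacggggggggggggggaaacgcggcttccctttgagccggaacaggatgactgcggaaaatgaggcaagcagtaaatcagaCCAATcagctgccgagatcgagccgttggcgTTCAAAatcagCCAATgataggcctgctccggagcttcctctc
Hjurp: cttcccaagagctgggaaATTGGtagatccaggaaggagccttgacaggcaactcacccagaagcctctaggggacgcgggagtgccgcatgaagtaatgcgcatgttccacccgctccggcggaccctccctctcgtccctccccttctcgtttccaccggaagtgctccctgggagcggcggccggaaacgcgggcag
Within these stretches Top2a had 5 CCAAT boxes and 4 of the homology letters, Mki67 3 and 2, Ccnb2 3 and 1, Cdk1 2 and 2, Bub3 2 and 1, Bub1b 1 and 1, Bub1 2 and 0, and Hjurp 1 and 0. Bub3 thus held both motifs. Its log2 range was 0.41 over the SSC libraries and 1.14 over the OPC libraries, where it followed the other members at r = 0.73. In the 200 bases alone the homology letters were in 36.8% of member windows and 13.4% of all. A match describes letters only and says nothing of binding.

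The first comparisons asked whether the Cxcr4 mutation changed these genes in SSCs, a population whose cell cycle the study also examined. Libraries were set against each other on the TMM-normalized log2 scale where overlap between groups is counted. In edgeR's quasi-likelihood test (called: adjusted p under 0.05 and at least 1.5-fold), 0 of 40 members tested were called between +/1013 and WT SSCs, where 0.0736% of all genes were called. At an unadjusted p under 0.05 there were 5 members, or 12.5%, against 17.3% of all genes. DESeq2's Wald test called 2 of the 31 members it gave an adjusted p, or 6.45%, against 8.15% of genes: Cdc25c and Mki67, both lower. The median member was at a log2 fold change of -2.04, that of all genes at -0.11, and 38 of 40 members were below 0. Without the 3 leukocyte-rich libraries the median was -0.22.

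Mki67 was at 5.97, 2.98 and 46.5 CPM in WT SSCs and at 0.44, 0.66 and 1.65 CPM in +/1013 SSCs. The groups did not overlap, and a single WT library set most of the distance. Its fitted log2 fold change was -4.08 ± 1.21 (SE; edgeR adjusted p = 0.18; DESeq2 adjusted p = 0.0028), and -2.08 without WT SSC 3 (edgeR adjusted p = 0.45). Bub1, the checkpoint kinase that recruits other checkpoint proteins to kinetochores, had 2 counts in all over the 3 +/1013 SSC libraries, against 0.28, 0.99 and 18.2 CPM in WT. The ratio of pooled CPM was 449-fold lower in +/1013, with an exact 95% counting interval of 124 to 3716 that does not include the spread between libraries (edgeR adjusted p = 0.17). WT SSC 3 supplied most of the WT counts, and without it the ratio was 46.5-fold (12.3 to 393; edgeR adjusted p = 0.36). Cdc25c, the phosphatase that activates Cdk1, had 3 counts over the +/1013 libraries and 2 over the 1013/1013 libraries, and was at 0, 1.15 and 4.92 CPM in WT. Ttk, too low in SSCs to be tested, had 1 count over the +/1013 libraries and was at 0, 0 and 4.52 CPM in WT. The counts of Cdc25c and Ttk in WT thus came mostly or wholly from WT SSC 3. In total 8 members, or 20.0%, were lower in every +/1013 library than in every WT library, against 16.8% of all genes: Ccnb2, Cdc25b, Top2a, Mki67, Bub1, Cenpf, Hjurp and Ndc80.

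Between 1013/1013 and WT SSCs, edgeR called 0 of 40 members and 0% of all genes. An unadjusted p under 0.05 was met by 3 members, or 7.5%, against 18.3% of genes. DESeq2 called 4 of 31, or 12.9%, against 11.4%: Plk1, Bub1b, Hjurp and Kif2c, all lower. The median member was at -0.99 and the median gene at -0.23. Without the 3 leukocyte-rich libraries the members' median was 0.62, of the opposite sign. Lower in both 1013/1013 libraries than in every WT library were 10 members, or 25.0%, against 24.4% of all genes.

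Hjurp gave the smallest p. It was at 85.3, 103 and 145 CPM in WT SSCs, at 50.6, 53.2 and 68.0 CPM in +/1013 SSCs and at 38.6 and 33.0 CPM in 1013/1013 SSCs. No 2 of these groups overlapped, and the order followed the number of mutant alleles. The share of all genes in the same order was not counted. The log2 fold change of 1013/1013 against WT was -1.37 ± 0.26 (SE; edgeR adjusted p = 0.096; DESeq2 adjusted p = 0.0002) and that of +/1013 against WT was -0.71 ± 0.22 (edgeR adjusted p = 0.19; DESeq2 adjusted p = 0.051). Without WT SSC 3 they were -1.15 (edgeR adjusted p = 0.22) and -0.49 (edgeR adjusted p = 0.42). In OPCs Hjurp showed no such order, at 52.3, 42.1 and 56.0 CPM in WT, 44.9, 35.3 and 61.9 CPM in +/1013 and 56.7, 66.2 and 46.5 CPM in 1013/1013. Bub1b, which encodes the checkpoint protein BubR1, had 1 count in each 1013/1013 SSC library, and was at 2.66, 0.76 and 2.81 CPM in +/1013 and 3.19, 1.48 and 26.7 CPM in WT. Its pooled CPM was 471-fold lower in 1013/1013 than in WT (exact 95% counting interval 130 to 3892; edgeR adjusted p = 0.11; DESeq2 adjusted p = 3.6e-06) and 98.6-fold lower than in +/1013 (27.1 to 818; edgeR adjusted p = 0.79). Without WT SSC 3 the ratio to WT was 111-fold (30.4 to 921; edgeR adjusted p = 0.25). Kif2c, a motor that takes microtubules apart at kinetochores, had 0 counts in both 1013/1013 SSC libraries, and was at 0.04, 1.75 and 11.8 CPM in WT and 2.76, 0.06 and 1.63 CPM in +/1013. Against a limit of 3 counts over the group its pooled CPM was at least 135-fold lower than in WT (edgeR adjusted p = 0.21) and at least 47.1-fold lower than in +/1013. Without WT SSC 3 the bound against WT was 27.97-fold (edgeR adjusted p = 0.35). For Mki67 the direction depended on WT SSC 3. Its 1013/1013 values were 17.7 and 3.90 CPM, and its log2 fold change against WT was -0.54 ± 1.21 (edgeR adjusted p = 0.83) and 1.46 without WT SSC 3.

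**Figure D3:**
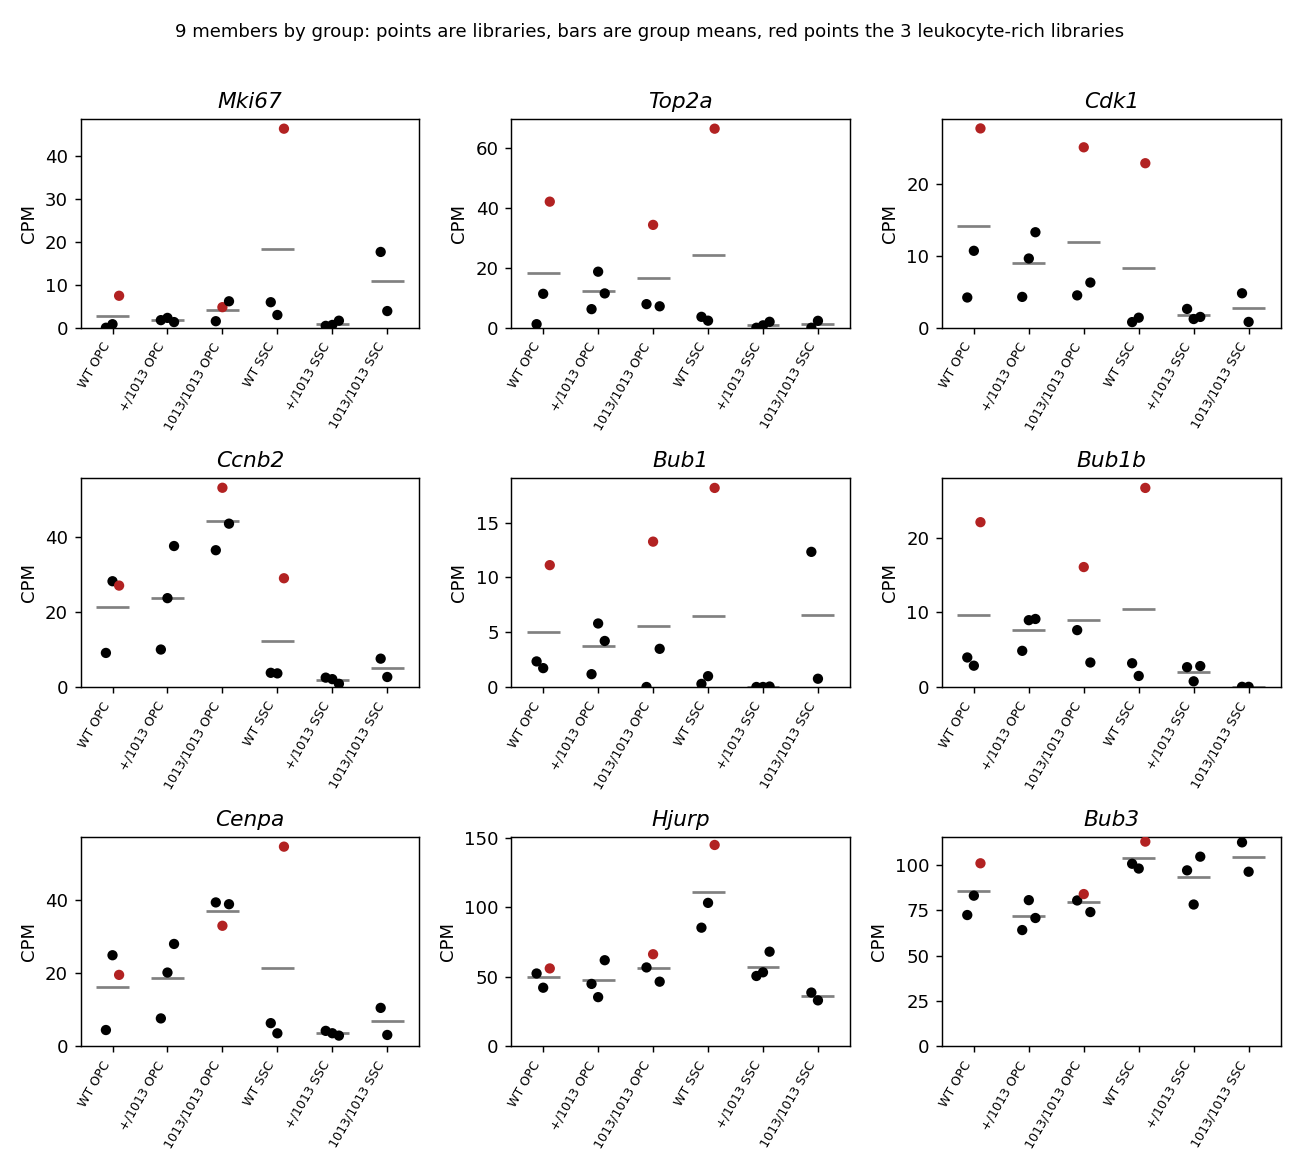
CPM of 9 members in the 6 groups; points are libraries, grey bars group means, and red points the 3 leukocyte-rich libraries. Red points are the highest of their group for Cdk1, Top2a, Bub1 and Bub1b, the SSC points of Hjurp lie in 3 separate bands from WT down to 1013/1013, and those of Bub3 lie between 78.3 and 113 CPM.

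By role, the entry genes had medians of -1.87 in +/1013 and -0.999 in 1013/1013 SSCs against WT, the centromere and kinetochore genes -2.94 and -1.42, the passenger complex -1.80 and -0.94, and the spindle motors -2.15 and -0.99. Without the leukocyte-rich libraries these became -0.11 and 0.31, -0.49 and -0.77, -0.03 and 0.63, and 0.15 and 0.99. Of these 4 roles, the centromere and kinetochore genes alone then had a median below 0 in both comparisons. No role held a called gene. WT and mutant SSC libraries also differed in other ways: the share of reads counted to no gene was 3.68% to 4.15% in WT and 1.504% to 2.69% in mutant libraries, and 21449 to 22599 genes had a count in WT against 15748 to 19227. Summed markers of other cell types moved with genotype too. The 6 OPC markers summed to 11570 to 16619 CPM in WT SSCs and 2269 to 4785 CPM in mutant SSCs. Col1a1 made up most of the WT sums, at 10704 to 14473 CPM. Runx2, Sp7 and Col1a1 were lower in every mutant than in every WT SSC library. Alpl, Ibsp and Bglap overlapped, with Ibsp at 594 to 1352 CPM in WT and 368 to 1636 CPM in mutant SSCs. The 5 chondrocyte markers summed to 858 to 5076 CPM and 59.9 to 252 CPM. Leukocyte markers, with WT SSC 3 set aside, summed to 1367 and 411 CPM in WT SSCs. They were at 199, 50.3 and 60.4 CPM in +/1013 and 1147 and 595 CPM in 1013/1013 SSCs. The medians without the leukocyte-rich libraries thus still hold this difference. The part of these markers in the members' values was not tested. The labels name no batch; if the WT SSC libraries were one, it cannot be told apart from the mutation.

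Between 1013/1013 and +/1013 SSCs edgeR called 0 of 40 members and 0% of genes, and an unadjusted p under 0.05 was met by 6 members, or 15.0%, against 5.53% of genes. DESeq2 called 2 of 31, or 6.45%, against 1.35%: Bub1b and Kif2c, described above. A total of 9 members, or 22.5%, were higher in both 1013/1013 libraries than in every +/1013 library, against 7.05% of all genes, Mki67, Bub1 and Ndc80 among them. For Bub1 the 1013/1013 values were 12.3 and 0.75 CPM (edgeR adjusted p = 0.79), and Mki67 had a log2 fold change of 3.54 ± 1.24 (edgeR adjusted p = 0.79). Mki67, Bub1 and Ndc80 each had their higher value in the patchwork library 1013/1013 SSC 1. Hjurp, Bub1b, Kif2c and Birc5 went the other way, with lower CPM in both 1013/1013 libraries than in every +/1013 library. The number of members and the share of all genes lower in this way are not given here. Summed leukocyte markers, given above, were also higher in both 1013/1013 libraries, and their part was not tested.

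In OPCs the same question had no called member. Between +/1013 and WT OPCs edgeR called 0 of 41 members and 0% of genes, and 2 members, or 4.88%, had an unadjusted p under 0.05 against 2.04% of genes. Between 1013/1013 and WT the values were 0 members against 0.00617% of genes, and 1 member, or 2.44%, against 3.38%. Between 1013/1013 and +/1013 they were 0 members against 0%, and 1 member, or 2.44%, against 3.17%. DESeq2 called 0 of 40 members in each, against 0.45%, 0.354% and 0.442% of genes. The medians were -0.45, -0.01 and 0.47, and 0.36, 0.03 and -0.39 without the leukocyte-rich libraries, so that the first and the last turned sign. Leaving out 1 library at a time moved them between -0.91 and 0.36, between -0.70 and 0.91 and between -0.40 and 0.98. A total of 2 members (Cenpe and Cenpf), or 4.88%, were higher in every +/1013 than in every WT library, against 2.71% of genes. For 1013/1013 there were 5 against WT, or 12.2% (3.91% of genes), namely Ccnb2, Cdc25c, Cenpa, Cenpe and Anln, and 4 against +/1013, or 9.76% (3.54% of genes).

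Cenpf and Cenpe, large kinetochore proteins, gave the smallest p against WT in OPCs. Cenpf was at 0.05, 0.49 and 0.60 CPM in WT, 2.73, 7.94 and 0.95 CPM in +/1013 and 4.70, 4.67 and 0.65 CPM in 1013/1013. Cenpe was at 0.67, 0 and 0.05 CPM in WT, 1.48, 1.91 and 5.80 CPM in +/1013 and 1.65, 1.60 and 4.61 CPM in 1013/1013. Every mutant library lay above every WT library in CPM, at low levels, although on the TMM-normalized scale Cenpf in 1013/1013 overlapped WT. The log2 fold changes of Cenpf were 3.24 ± 1.23 and 2.89 ± 1.21 in +/1013 and 1013/1013 against WT, and those of Cenpe were 3.77 ± 1.57 and 3.45 ± 1.55, with edgeR adjusted p of 1.0 in both genes for +/1013. For 1013/1013 the adjusted p was 0.9997 in edgeR for both, and 0.45 and 0.48 in DESeq2. The 2 comparisons share their WT libraries. Without the leukocyte-rich libraries the folds were 3.80 and 3.07 for Cenpf and 3.31 and 3.25 for Cenpe. Cenpe did not follow the other members and was not high in WT OPC 3 or 1013/1013 OPC 2.

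Cenpa, the centromeric histone, was at 4.44, 25.0 and 19.6 CPM in WT OPCs, 7.63, 20.2 and 28.1 CPM in +/1013 and 39.4, 33.0 and 39.0 CPM in 1013/1013. Ccnb2, a B-type cyclin, was at 9.11, 28.3 and 27.1 CPM in WT, 10.02, 23.8 and 37.7 CPM in +/1013 and 36.6, 53.3 and 43.7 CPM in 1013/1013. Anln, a scaffold of the cleavage ring, was at 5.40, 7.39 and 4.26 CPM, 3.57, 5.90 and 5.72 CPM and 10.4, 13.8 and 8.82 CPM in the same order. In each of these 3 genes the 1013/1013 libraries lay above all WT libraries. Summed chondrocyte markers were at 77711, 25343 and 55910 CPM in 1013/1013 OPCs and 10089 to 33873 CPM in WT, and summed erythroid markers reached 2823 CPM in 1013/1013 OPC 2 against 44.9 to 364 CPM in WT; the part of either was not tested. Anln had the smallest p against +/1013, with a log2 fold change of 1.02 ± 0.39 (edgeR adjusted p = 0.999), followed by Ect2 at 1.62 ± 0.95 and Cdc25c at 1.02 ± 0.66 with the same adjusted p. Without the leukocyte-rich libraries these were 0.81, 0.47 and 0.91. Against WT, Anln was at 0.82 ± 0.39 (edgeR adjusted p = 0.9997). Cks2, a small Cdk1 subunit, was at 0.61, 0.74 and 0.65 CPM in +/1013 and 1.02, 0.97 and 1.95 CPM in WT OPCs. Its log2 fold change was -1.08 ± 0.65 (edgeR adjusted p = 1.0), or -0.59 without the leukocyte-rich libraries. The groups did not overlap, and the share of all genes lower in this way is not given here. Mki67 in OPCs was at 0, 0.83 and 7.47 CPM in WT, 1.78, 2.30 and 1.33 CPM in +/1013 and 1.53, 4.81 and 6.18 CPM in 1013/1013. Its log2 fold changes against WT were -0.81 ± 1.60 and 0.39 ± 1.59, and 2.03 and 3.13 without the leukocyte-rich libraries.

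**Figure D4:**
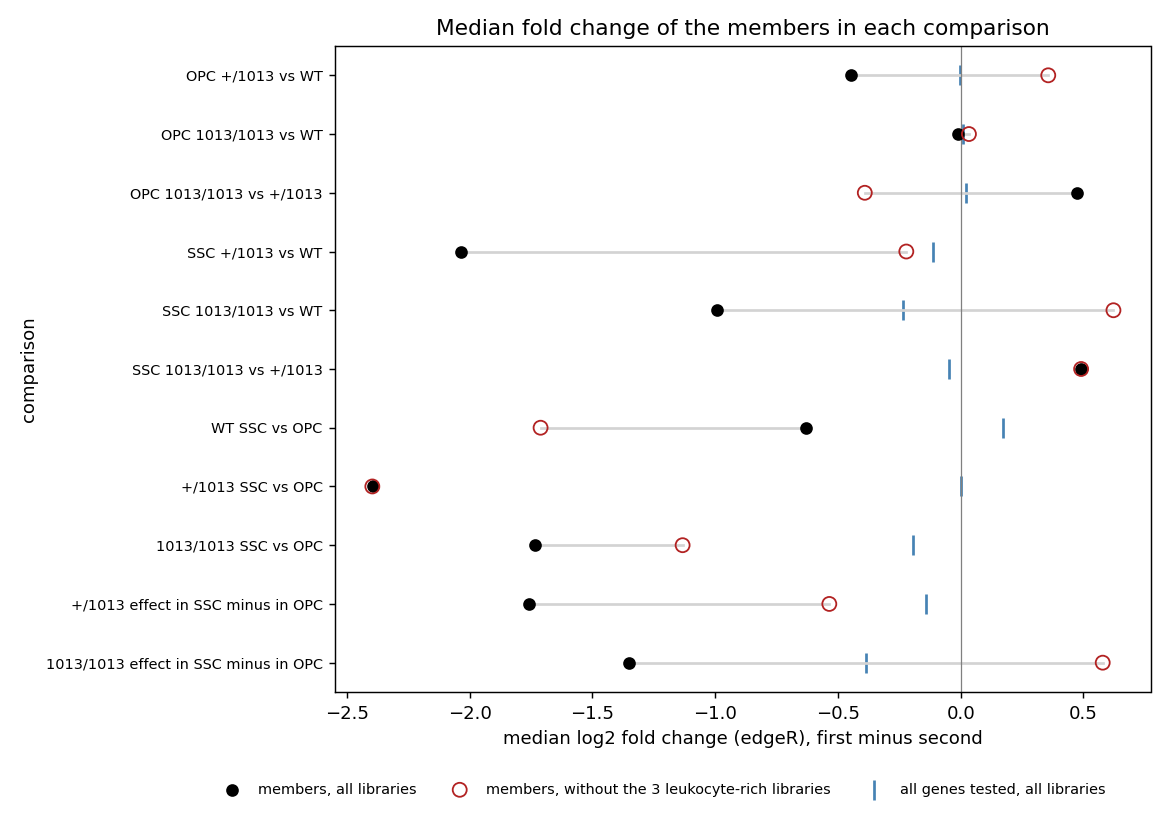
Median log2 fold change of the members in each of the 11 comparisons with all libraries (black) and without the 3 leukocyte-rich ones (red circles), and of all genes tested (blue ticks). The medians of +/1013 and 1013/1013 SSCs against WT move from -2.04 to -0.22 and from -0.99 to 0.62, whereas that of +/1013 SSCs against OPCs is at -2.39 and -2.40.

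The remaining comparisons set SSCs against OPCs within each genotype, in a fit of all 17 libraries. In mutant mice the log2 fold change of most members was below 0. In +/1013 mice 3 of 41 members tested, or 7.32%, were called lower, against 6.02% of all genes, and 0 higher, against 6.44%. In 1013/1013 mice 4 of 41, or 9.76%, were called lower, against 6.12%, and 0 higher, against 6.94%. In WT mice 0 were called lower or higher, against 5.86% and 5.55% of genes, and 3 members, or 7.32%, had an unadjusted p under 0.05 against 26.7% of genes. DESeq2 called 1, 11 and 12 of 41 members in WT, +/1013 and 1013/1013 mice, or 2.44%, 26.8% and 29.3%, against 20.9%, 23.9% and 28.2% of genes in either direction. Members lower in every SSC library than in every OPC library of the same genotype numbered 1 in WT, or 2.44% (15.7% of genes), 21 in +/1013, or 51.2% (17% of genes), and 21 in 1013/1013, or 51.2% (21.8% of genes). The medians were -0.63, -2.39 and -1.73, with 27, 38 and 36 of 41 members below 0, against 0.17, 0 and -0.20 for all genes. Without the leukocyte-rich libraries they were -1.71, -2.40 and -1.13, so that the WT median moved towards that of +/1013, in which no library was left out. Then 0, 7 and 4 members were called, or 0%, 17.1% and 9.76%, against 5.34%, 13.5% and 11.5% of all genes.

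Ccnb2 was called in both mutant genotypes. It was at 2.50, 2.10 and 0.85 CPM in +/1013 SSCs and 7.58 and 2.67 CPM in 1013/1013 SSCs, each below all OPC values given above, with log2 fold changes of -4.22 ± 0.90 (edgeR adjusted p = 0.0076) and -3.56 ± 1.03 (edgeR adjusted p = 0.037). In WT SSCs it was at 3.79, 3.64 and 29.1 CPM, and only WT SSC 3 reached the OPC range. Cdc25c was called in both as well: in OPCs it was at 1.40, 3.64 and 3.20 CPM in +/1013 and 5.80, 6.91 and 5.55 CPM in 1013/1013. Its pooled CPM in SSCs was 138-fold lower in +/1013 (exact 95% counting interval 47.2 to 673; edgeR adjusted p = 0.016) and 289-fold lower in 1013/1013 (79.8 to 2389; edgeR adjusted p = 0.028). Bub1 was called in +/1013, at 1.17, 5.79 and 4.20 CPM in OPCs and 2 counts in all SSC libraries, or 280-fold lower (77.4 to 2318; edgeR adjusted p = 0.047). Bub1b was called in 1013/1013, at 7.63, 16.1 and 3.29 CPM in OPCs and 435-fold lower in SSCs (120 to 3591; edgeR adjusted p = 0.0061). Hjurp was called lower in 1013/1013 SSCs, with a log2 fold change of -1.05 ± 0.30 (edgeR adjusted p = 0.034), and lost the call without the leukocyte-rich libraries (edgeR adjusted p = 0.074) and when library totals replaced TMM scaling (log2 -0.66). Of the 7 calls, 6 were lost when some single library was left out. Hjurp and Ccnb2 in 1013/1013 lost theirs when any 1 of the 5 libraries of that genotype was left out (edgeR adjusted p up to 0.17 and 0.15), Bub1 without +/1013 OPC 2 or 3 or any +/1013 SSC library (up to 0.15), and Bub1b without 1013/1013 SSC 1 (0.074). Cdc25c lost it in +/1013 without +/1013 SSC 1 or 2 (edgeR adjusted p up to 0.065) and in 1013/1013 without 1013/1013 OPC 3 or SSC 1 (up to 0.18). Ccnb2 in +/1013 kept its call whichever library was left out (up to 0.034). Kif2c was not called by edgeR there (adjusted p = 0.097), at 0.11, 7.36 and 1.08 CPM in 1013/1013 OPCs and 0 in SSCs, or at least 90.9-fold lower (17.7-fold without 1013/1013 OPC 2).

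In WT mice the smallest p belonged to Bub3, Cenpe and Mad2l1, none called. Bub3 had a log2 fold change of -0.51 ± 0.21 (edgeR adjusted p = 0.13) although its CPM was higher in SSCs, and the fold was 0.28 when library totals were used. The scale matters here because Col1a1 and Col1a2 took 16.1% to 38.7% of the counts in OPC libraries and 0.56% to 2.78% in SSC libraries. With library totals the median of all genes moved from 0.17 to 0.94 in WT and from 0 to 0.36 in +/1013, and that of the members from -0.63 to 0.26 and from -2.39 to -1.88. Cenpe was at 3.35, 2.72 and 13.4 CPM in WT SSCs, above its WT OPC values (log2 4.04 ± 1.74; edgeR adjusted p = 0.15), and Mad2l1, a checkpoint inhibitor of Cdc20, was at -1.04 ± 0.46 (edgeR adjusted p = 0.17). Cdk1, the central mitotic kinase, was at 0.79, 1.40 and 22.9 CPM in WT SSCs and 4.21, 10.7 and 27.7 CPM in WT OPCs, and at 2.62, 1.21 and 1.51 CPM against 4.29, 9.63 and 13.3 CPM in +/1013. Top2a, which untangles chromosomes, was at 0, 0.80 and 1.99 CPM in +/1013 SSCs against 6.22, 18.7 and 11.5 CPM in OPCs, and at 3.65, 2.37 and 66.6 CPM against 1.20, 11.3 and 42.2 CPM in WT. The WT overlap in both genes came from WT SSC 3 alone or from WT SSC 3 and WT OPC 1.

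Other members kept to these patterns. Ccnb1, the main mitotic cyclin, was at 0.84 to 9.64 CPM in OPCs and 0 to 17.4 CPM in SSCs; Plk1 was at 1.58 to 17.1 and 0 to 14.5 CPM; Birc5, the passenger subunit survivin, was at 2.45 to 23.4 and 1.03 to 17.8 CPM. Aurkb was at 0.05 to 21.9 CPM in OPCs and 0 to 20.5 CPM in SSCs, and Prc1 at 3.53 to 18.7 and 1.33 to 26.4 CPM. The top SSC value of each of these 5 was in WT SSC 3. Cdc25b, a phosphatase that starts Cdk1 activation, differed: it was at 5.02 to 37.0 CPM in OPCs and 12.5 to 33.5 CPM in SSCs, with its highest SSC value in WT SSC 2. Cks2 was called higher in +/1013 SSCs than OPCs by DESeq2 (log2 1.68; DESeq2 adjusted p = 0.029) and not by edgeR (log2 1.73; adjusted p = 0.13).

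**Figure D5:**
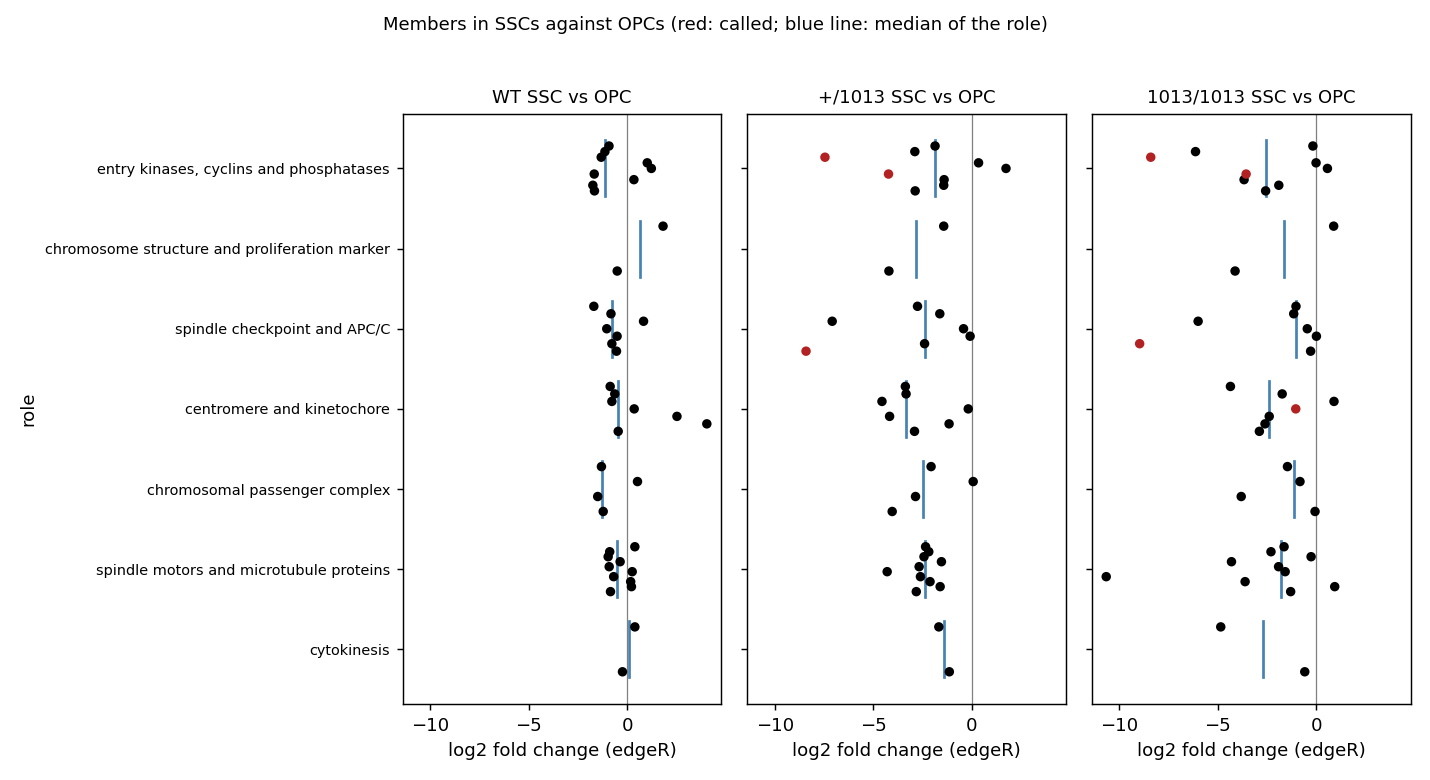
Log2 fold change (edgeR) of each member tested, SSCs against OPCs, by role, in WT, +/1013 and 1013/1013 mice; red points are called and blue lines are role medians. The role medians are all below 0 in +/1013 and 1013/1013 mice, from -1.41 to -3.33 and from -1.04 to -2.72.

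Whether the effect of the mutation differed between the cell types was tested directly. The +/1013 effect in SSCs minus that in OPCs was called by edgeR for 0 of 41 members, against 0.084% of genes, and the 1013/1013 difference for 0, against 0.153%. At an unadjusted p under 0.05 there were 5 and 6 members, or 12.2% and 14.6%, against 10.6% and 15% of genes. DESeq2 called 2 and 5 members, or 4.88% and 12.2%, against 2.77% and 7.21%. The smallest p for +/1013 belonged to Cdc25c, Cenpf and Bub1 (edgeR adjusted p = 0.393, 0.405 and 0.409), and for 1013/1013 to Bub1b, Hjurp and Cdc25c (edgeR adjusted p = 0.13, 0.17 and 0.23). For Hjurp the difference was -1.40 ± 0.39 on the log2 scale, and -1.20 without the leukocyte-rich libraries. For Cenpf the +/1013 difference was -6.69 ± 2.37, with a mean of 0.29 CPM in +/1013 SSCs and 3.997 CPM in WT SSCs.

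Other genes of the same pathways were followed as well. Of 30 other kinetochore genes all 30 were tested, of 20 other spindle and cytokinesis genes 18 in OPCs and 19 in SSCs, of 19 condensin, cohesin and protection genes all 19, of 14 entry regulators 13, of 12 core subunits of the anaphase-promoting complex all 12 and of 14 regulators of mitotic transcription 13. None of these was called in the 4 comparisons of a mutant with WT. In SSCs their medians were -0.41, -1.55, -0.63, -0.74, 0.30 and -0.35 for +/1013 and -1.03, -2.57, -0.71, -0.88, 0.22 and -0.51 for 1013/1013, in the same order. Without the leukocyte-rich libraries they were 0.04, -0.51, 0.03, -0.20, 0.31 and -0.03 for +/1013 and -0.07, -1.17, -0.08, -0.74, 0.24 and -0.01 for 1013/1013. The core of the anaphase-promoting complex, which is needed in resting cells as well, had 11 of 12 genes above 0 in both. Between SSCs and OPCs these lists held 3 genes called lower and 1 higher in WT, 4 lower and 4 higher in +/1013, and 10 lower and 2 higher in 1013/1013 mice, of 106 tested. The shares called lower were 2.83%, 3.77% and 9.43%, and those called higher 0.94%, 3.77% and 1.89%, beside the 5.55% to 6.94% of all genes given above. In the test of a difference between cell types, 1 core subunit was called in 1013/1013 (lower) and none in +/1013. In the order used above, the medians of the 6 lists were -0.55, -2.21, -0.40, -0.24, -0.06 and 0.11 in +/1013 and -1.49, -2.91, -0.62, -0.28, -0.02 and 0.04 in 1013/1013 mice. Without the leukocyte-rich libraries the 1013/1013 values were -0.87, -1.67, -0.32, 0.14, -0.01 and 0.06.

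Some members share exon bases with a gene on the other strand, and the library kit does not keep strand. The shared part was 29.3% of the exon bases of Kif20a (with Cdc23), 22.8% of Ube2c (with Tnnc2), 15.1% of Kif4 (with Pdzd11), 12.7% of Cdc25c (with Gm3550) and 12.5% of Ccna2 (with Exosc9), and counts there cannot be assigned to either gene. Cdc23 reached 103 CPM and Gm3550 0.09 CPM.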

How the data were processed

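Bulk RNA-seq was made from SMART-Seq v4 cDNA and Nextera XT libraries; per the study's methods reads were aligned with STAR to mm10 and counted per gene with HTSeq, and the authors deposited raw read counts per gene for each library (FastQC and DESeq2 are also named in the submitters' processing notes; versions and annotation are not given in the sources used here). Gene IDs were matched to GENCODE M21 (55154 of 55335) for symbols, exon lengths and overlaps. From the counts, CPM were computed over gene totals; genes passing filterByExpr were TMM-scaled and tested with edgeR 4.0.16 (quasi-likelihood, legacy fit) in R 4.3.3, per cell type for genotypes (16207 genes in OPCs, 17659 in SSCs) and over all libraries for SSC against OPC and the interactions (20238 genes), with Benjamini-Hochberg adjustment over all genes. A gene was called at an adjusted p under 0.05 and at least 1.5-fold. Folds against a group with 0 counts are bounds at 3 counts over the group, those with 1 to 3 counts have exact binomial counting intervals, and intervals cover counting error only. DESeq2 1.42.0, other scalings, filters and fits, a replicate block and leaving out each library were alternatives. The members and lists were chosen with earlier results of these data known. Per-library levels were given for 14 members fixed by role and for those named by the tests; per comparison the called members, or else the 3 with the smallest p, were named, with Mki67 against WT and members with at most 3 counts in a group; further members are named to show counts or ranges and were picked after their values were seen. Replicate numbers in the labels were checked for pairing: deviations from the group means of same-numbered libraries correlated from -0.23 to 0.27, and over 0.1 in every pair only for +/1013 and 1013/1013 OPCs, where the block changed no call. The scripts were tested on simulated counts. P-values measure the spread between pools.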

Additional observations from a re-analysis of the deposited data

How the results depend on the processing

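Members called by edgeR numbered 0 in all genotype comparisons and both interactions, 0, 3 and 4 between SSCs and OPCs in WT, +/1013 and 1013/1013 mice. DESeq2 called 2 (SSC +/1013 against WT), 4 (SSC 1013/1013 against WT), 2 (SSC 1013/1013 against +/1013), 1, 11 and 12 (SSC against OPC, genotypes in the order above), and 2 and 5 (interactions of +/1013 and 1013/1013). One fit of all 17 libraries called 2 in 1013/1013 against WT SSCs (Bub1b and Hjurp; 4.88%, against 1.05% of all genes). In WT SSCs against OPCs the newer edgeR fit called 1 (Cenpe; 2.44%, against 16.3%) and library totals called 2 (Cks2 and Hjurp, higher; 4.88%, against 20.3%); Bub3 there turned to 0.28. Without the 3 leukocyte-rich libraries, an alternative chosen after seeing the data as was the use of library totals, +/1013 SSCs against OPCs had 7 calls, and the median was -0.22 for +/1013 and 0.62 for 1013/1013 against WT SSCs and 0.58 for the 1013/1013 interaction. Mki67 turned to 2.03 (+/1013 OPCs against WT) and 1.46 (1013/1013 SSCs against WT).

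With a replicate block, +/1013 SSCs against OPCs had 5 calls (12.2%, against 11.2% of all genes), the median of 1013/1013 SSCs against WT was -0.17 and that of the 1013/1013 interaction -0.72, and Mki67 was at 1.01 in both +/1013 OPCs and 1013/1013 SSCs against WT; it changed no other call count by over 1.5 times. Same-numbered libraries of the 2 cell types correlated from -0.02 to 0.27, and in no genotype over 0.1 in every pair, so the numbers were not taken to pair them.

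Leaving out 1 library at a time gave these ranges. The median was -2.48 to -0.22 for +/1013 SSCs against WT, lowest in size without WT SSC 3. For 1013/1013 SSCs against WT, the median was -2.42 (without 1013/1013 SSC 1) to 0.62 (without WT SSC 3). Leaving out any WT SSC library gave 0 called members there, against 0% of all genes. For SSCs against OPCs in WT there were 0 to 2 calls, with a median of -2.64 to 0.24. The 2 were Cdk1 and Ccnb2 without WT SSC 3 (4.88% of members, against 7.66% of all genes). In +/1013 there were 1 to 4 calls: 1 without +/1013 SSC 1 (2.44%, against 7.81%) and 4 without +/1013 OPC 1 (9.76%, against 11.97%). In 1013/1013 the median was -3.11 to -1.12. Leaving out 1013/1013 OPC 3, 1 or 2 gave 1, 2 and 3 calls (2.44%, 4.88% and 7.32%, against 8.42%, 9.71% and 10.95%). In each fit named here the share of members called was below that of all genes. Calls without a 1013/1013 SSC library are not given, as 1 library is then left in that group. The interaction medians were -2.59 to 0.012 for +/1013 and -2.62 to 0.36 for 1013/1013. Mki67 against WT was -1.38 to 2.03 in +/1013 OPCs, -0.19 to 3.23 in 1013/1013 OPCs and -1.88 to 1.46 in 1013/1013 SSCs. A lone library left in a group is taken to vary like the others. The causes of these changes were not tested. Most members lie under 20 CPM, where few molecules set the precision.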
